A study of Drosophila melanogaster with 55 samples.

Results

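The fourth chromosome of Drosophila melanogaster is small and largely heterochromatic, yet it carries a group of long genes for developmental transcription factors. Described here are the 8 listed genes of this kind, namely ci, ey, toy, pan, zfh2, Sox102F, onecut and sv. They were taken by name from the 118 chromosome 4 genes of the dm6 annotation, which has 18164 genes on the main arms once transposable elements are left out. All 8 names were found on chromosome 4. For each gene the span from the annotated start to the annotated end (the body) and the 2 kb before the start (the upstream part) were examined apart.

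The study used chromatin immunoprecipitation followed by sequencing (ChIP-seq) on adult fly heads, 1 to 2 weeks old, to ask whether the topoisomerase Top3b and the Argonaute protein AGO2 act on heterochromatin. The control line was w1118. HP1 was profiled in w1118 (3 libraries), in Top3b26, a mutant made by remobilising a P element (3), in AGO2 1-1-7, a CRISPR line that the study describes as null with deletions in the promoter region and in an exon (2), and in the double mutant Top3b26;AGO2 1-1-7 (2). H3K9me2 and H3K9me3 were profiled in w1118 and Top3b26 with 3 libraries each, Top3b in w1118 with 3, and the FLAG tag in FLAG-AGO2 flies, whose own AGO2 gene carries the tag (2), and in untagged w1118 (1). A complementation set gave 1 HP1 library each for w1118, for Top3b26, and for Top3b26 flies in which an actin Gal4 driver, active in most cells, expressed Top3b in its wild-type form (WT), with the catalytic tyrosine replaced (Y332F) or lacking the RGG box (dRGG).

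HP1 is a chromatin protein that binds histone H3 methylated on lysine 9, and both are hallmarks of silenced heterochromatin. On chromosome 4, HP1 and H3K9 methylation also lie over expressed genes, and the chromosome is rich in INE-1, an old and abundant transposable element of Drosophila. The listed genes act in well known pathways. ci encodes the Gli-type effector of Hedgehog signalling and pan the TCF-type effector of Wnt signalling. ey and toy encode Pax6 proteins that start eye development, sv a Pax protein of another class needed for sensory bristles and cone cells, Sox102F a SoxD-type factor, onecut a cut-homeodomain factor and zfh2 a protein with zinc fingers and homeodomains. Heads are a mixture of cell types, so fewer cells carrying a mark and less of the mark per cell cannot be told apart in any value below.

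The measure throughout is coverage: of all bases of a region, the percentage inside islands, that is, inside the enriched regions that the authors called in each library, with a score of at least 200. The lists held 585 to 11046 islands, and read depth was not given in the sources used here. Island lists differed in how close neighbouring islands could lie. In 4 HP1 lists, those of the second and the third replicate of w1118 and Top3b26, no islands lay closer than 1100 bp. This minimum was 800 bp for Top3b replicate 3 and 700 bp elsewhere. Replicate 2 of H3K9me2 was low in both lines, with a median body coverage over chromosome 4 genes of 2.01% in w1118 and 0% in Top3b26, against 25.2% to 45.3% in the other 4 libraries. P-values measure only the spread between these libraries. The smallest two-sided exact permutation p for 3 libraries against 3, or against 2, is 0.1, so no gene could pass 0.05, and results are given as whether the libraries of the groups overlapped.

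The 8 genes differed in size and structure. ci (FBgn0004859, chr4:47710-57041, minus strand, 9332 bp) and onecut (FBgn0028996, chr4:598555-607649, minus strand, 9095 bp) were the shortest and the richest in exons, at 60.6% and 74.1% of their length. pan (FBgn0085432, chr4:69326-114270, plus strand) spanned 44945 bp, zfh2 (FBgn0004607, chr4:501810-540874, plus strand) 39065 bp and Sox102F (FBgn0039938, chr4:800436-834393, minus strand) 33958 bp. sv (FBgn0005561, chr4:1088798-1113317, plus strand), ey (FBgn0005558, chr4:697689-721173, plus strand) and toy (FBgn0019650, chr4:989725-1007922, plus strand) spanned 24520, 23485 and 18198 bp. Annotated transposable elements took up 7.07% (onecut) to 25.2% (toy) of a body. The median length was 24002.5 bp, against 6252.5 bp over the 118 chromosome 4 genes. Some windows hold other genes: the upstream part of ey overlaps myo, that of ci overlaps asRNA:CR43957, and the genes Tdg and Cals overlap the bodies of zfh2 and sv.

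Sequences of dm6 are given first for 3 INE-1 copies, because the longest stretch of ey, Sox102F and sv that was inside HP1 islands in all 10 libraries of the 4 lines lay on them. Each is a stretch of 300 bases in the direction in which the element is annotated. Capitals mark CAGATTCTAGAGAC, the longest run of bases (14) found in all 3.

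ey INE-1 copy (chr4:716674-716973, minus strand): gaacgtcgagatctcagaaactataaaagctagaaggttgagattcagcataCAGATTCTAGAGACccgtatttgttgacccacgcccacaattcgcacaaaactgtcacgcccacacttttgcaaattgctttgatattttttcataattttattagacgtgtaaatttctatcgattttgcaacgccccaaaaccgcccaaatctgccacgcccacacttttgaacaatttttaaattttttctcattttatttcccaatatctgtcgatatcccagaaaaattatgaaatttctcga
Sox102F INE-1 copy (chr4:816534-816833, plus strand): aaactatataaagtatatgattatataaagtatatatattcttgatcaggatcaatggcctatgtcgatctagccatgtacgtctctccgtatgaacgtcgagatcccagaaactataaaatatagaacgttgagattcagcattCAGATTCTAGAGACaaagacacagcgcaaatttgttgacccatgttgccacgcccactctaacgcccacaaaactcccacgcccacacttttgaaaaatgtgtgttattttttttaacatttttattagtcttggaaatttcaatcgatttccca
sv INE-1 copy (chr4:1089701-1090000, plus strand): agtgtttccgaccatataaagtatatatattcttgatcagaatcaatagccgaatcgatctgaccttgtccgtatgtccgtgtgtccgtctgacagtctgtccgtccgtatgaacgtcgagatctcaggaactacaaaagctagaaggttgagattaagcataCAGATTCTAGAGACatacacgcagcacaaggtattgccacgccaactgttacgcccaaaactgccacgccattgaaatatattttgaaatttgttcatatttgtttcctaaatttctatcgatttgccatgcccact

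The 3 copies shared longer runs in pairs, of 19 bases (ey and Sox102F), 21 (ey and sv) and 27 (Sox102F and sv). On all of chromosome 4 the run of 14 bases occurred 19 times, and 16 of 344 INE-1 insertions (4.65%) held it. Most INE-1 insertions of the chromosome therefore lack it.

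Promoters are shown for 4 genes, chosen after their values were seen, whose starts differed in HP1 coverage. The upstream part was empty in w1118 for ci, full in w1118 and empty in AGO2 1-1-7 for ey, and full in every HP1 library for onecut, while the start of toy had HP1 islands in w1118 without islands of H3K9 methylation. They hold 250 bases before and 30 bases from the annotated start on, read in the direction of transcription. Capitals mark 4 short motifs, searched on both strands with overlaps allowed. TATCGATA is the site of the factor DREF, which binds upstream of many genes of dividing cells. GAGAG is the core of the sites that GAGA factor binds. The TATA box was searched as TATAAA, in any position of the window and not only near the start. The initiator, the element around many transcription starts, was searched as TCAGT.

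ci promoter (chr4:57012-57291, minus strand): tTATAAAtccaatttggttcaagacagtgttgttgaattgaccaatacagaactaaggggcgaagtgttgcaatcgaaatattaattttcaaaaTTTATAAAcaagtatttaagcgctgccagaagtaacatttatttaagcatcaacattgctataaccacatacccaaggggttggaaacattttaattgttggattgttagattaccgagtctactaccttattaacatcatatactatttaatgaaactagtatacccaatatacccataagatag
ey promoter (chr4:697439-697718, plus strand): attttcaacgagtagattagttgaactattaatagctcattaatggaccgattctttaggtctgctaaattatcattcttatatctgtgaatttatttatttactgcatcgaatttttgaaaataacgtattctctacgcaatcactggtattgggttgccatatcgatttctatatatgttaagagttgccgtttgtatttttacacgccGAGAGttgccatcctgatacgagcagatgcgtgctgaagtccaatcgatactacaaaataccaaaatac
toy promoter (chr4:989475-989754, plus strand): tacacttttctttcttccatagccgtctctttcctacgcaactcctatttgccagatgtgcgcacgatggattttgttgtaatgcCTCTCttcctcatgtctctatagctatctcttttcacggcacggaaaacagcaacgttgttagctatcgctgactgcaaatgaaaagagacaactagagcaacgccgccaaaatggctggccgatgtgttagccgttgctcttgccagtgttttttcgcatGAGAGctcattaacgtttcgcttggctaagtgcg
onecut promoter (chr4:607620-607899, minus strand): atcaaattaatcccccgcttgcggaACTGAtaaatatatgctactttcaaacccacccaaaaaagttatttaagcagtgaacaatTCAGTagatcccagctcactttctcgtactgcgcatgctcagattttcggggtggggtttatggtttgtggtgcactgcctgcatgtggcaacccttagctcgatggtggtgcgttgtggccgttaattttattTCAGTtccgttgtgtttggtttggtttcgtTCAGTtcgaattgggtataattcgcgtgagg

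The DREF site was in none of the 8 promoters, against 5.93% of 118 chromosome 4 promoters and 7.39% of all 18164. The GAGA factor motif was in 4 (ey, toy, zfh2 and sv), against 25.4% on chromosome 4 and 27.8% of all. The TATA box letters were in 1 (ci), against 35.6% and 42.6%, and those of the initiator in 3 (zfh2, Sox102F and onecut), against 35.6% and 48.4%. The median GC content was 41.2% in the 8 promoters and 33.9% over the chromosome 4 promoters. Such matches describe letters only and are not sites shown to be bound.

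In w1118, HP1 coverage separated the 8 genes into a pair that was almost filled and 6 that were covered in part. ci, the Hedgehog effector, was covered over 84.6%, 97.4% and 97.4% of its body in the 3 libraries, and onecut over 84.6% in each of them. Their means were 93.1% ± 7.42 and 84.6% ± 0 (SD, n = 3 for every w1118 value). The Pax6 gene toy followed with 50.5%, 55.5% and 48.9% (mean 51.6% ± 3.43), and none of its libraries reached those of onecut.

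Below toy the libraries of neighbouring genes overlapped. zfh2 had 34.5%, 60.3% and 44.0% (46.3% ± 13.0), and pan, the Wnt effector, had 33%, 37.5% and 47.7% (39.4% ± 7.53). The other Pax6 gene, ey, had 13.7%, 46.5% and 24.7% (28.3% ± 16.7). sv had 15.9%, 38.3% and 17.5% (23.9% ± 12.5), and Sox102F had 13.2%, 34.9% and 12.7% (20.3% ± 12.7). Replicate 2 was the highest of the 3 libraries for toy, zfh2, ey, sv and Sox102F, and for the last 3 of these the other 2 libraries stayed below 25%. Only the step from onecut to toy exceeded the spread between libraries in this order.

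Set beside the chromosome, the long genes were low. The median of the 8 means was 42.8%, against 74.3% over the 118 chromosome 4 genes and 70.7% over the other 39 genes of at least 9 kb. Of chromosome 4 genes, 69.5% had a lower mean than ci and 57.6% a lower mean than onecut, but only 12.7%, 9.32% and 7.63% lay below ey, sv and Sox102F. Sox102F, sv and ey were 3 of the 8 least covered genes among those of at least 9 kb, where the lowest was CR32010 at 4.44%. Length and mean coverage were weakly related over chromosome 4 genes (Spearman rho -0.258 across 118 genes of the same 3 libraries, a description without a test).

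**Figure D1:**
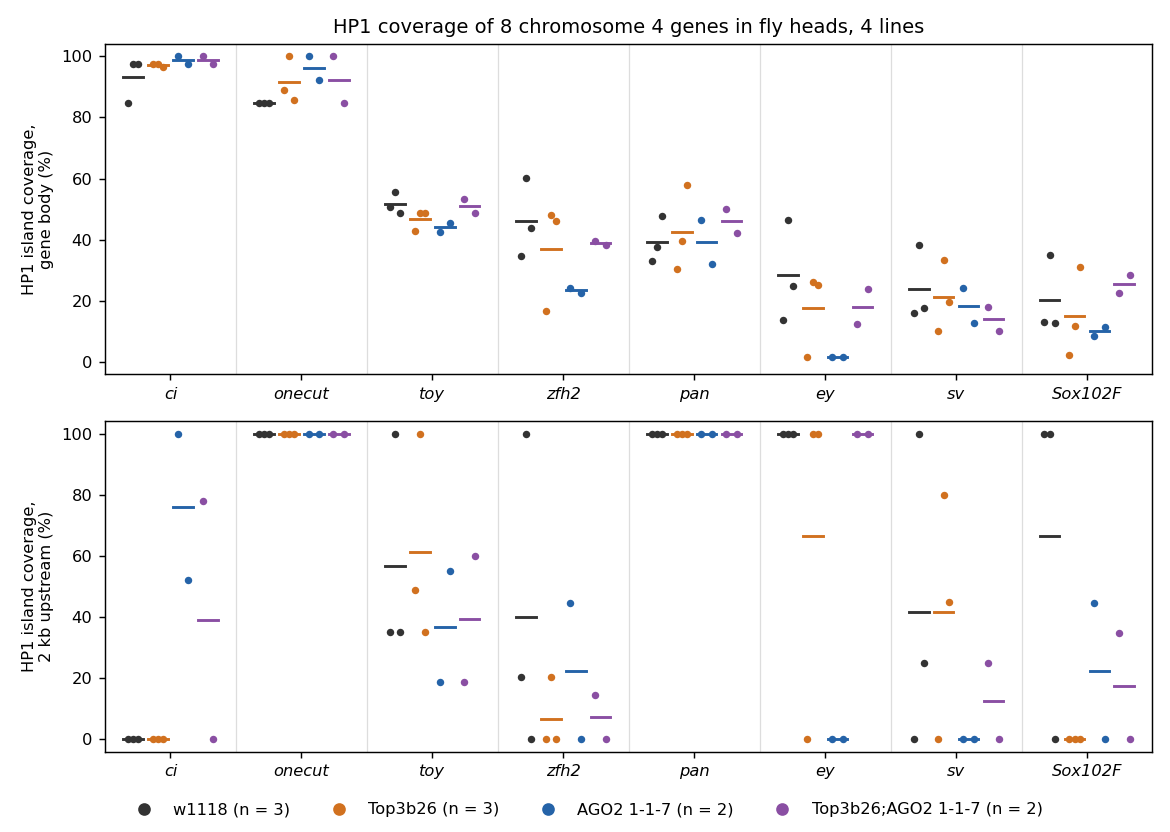
HP1 coverage (percent of bases inside islands) of the body (upper plot) and of the 2 kb upstream (lower plot) of the 8 genes. Each point is 1 library, bars are means, and colours give the 4 lines (w1118 and Top3b26 n = 3, AGO2 1-1-7 and Top3b26;AGO2 1-1-7 n = 2); both AGO2 1-1-7 libraries of ey are at 1.70% of the body and 0% upstream, below all w1118 libraries.

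Coverage was not spread evenly along the genes. On the grid of 100 bp, the 8 bodies made up 201.7 kb. Of this length, 15.9% was inside HP1 islands in all 10 libraries of the 4 lines, and 30.8% was outside them in all 10. For the other chromosome 4 genes these shares were 42.8% and 13.0%. Uncovered stretches were longest in the most weakly covered genes. No HP1 library of the series, with the complementation set included (15 libraries), had an island over 15.7 kb of Sox102F (46.2% of its body), 11.6 kb of sv (47.3%) or 9.9 kb of ey (42.2%). The same held for 6.3 kb of zfh2, 3.1 kb of toy and 1.5 kb of pan, and for no part of ci or onecut.

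The longest uncovered stretches were mostly intronic. In Sox102F it ran from chr4:823501 to 829000, 5393 to 10893 bp after the start, and exons took up 3.35% of it. In ey it was chr4:707401-714100, 6.7 kb with a jockey and an INE-1 insertion inside it, so an element alone did not mark a covered place. In sv it was chr4:1103501-1108100, and in zfh2 it was chr4:503501-506900, both without any annotated element.

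Stretches inside HP1 islands in all 10 libraries told the genes apart in another way. They amounted to 7.8 kb in ci and 7.6 kb in the body of onecut, where a run of 9.6 kb (chr4:600001-609600) took in the promoter and the whole upstream part as well. They amounted to 5.8 kb in toy, 5.3 kb in pan and 3.6 kb in zfh2. In sv, Sox102F and ey only 1.0, 0.5 and 0.4 kb remained. The longest run of each lay on the INE-1 copy whose sequence is given above: chr4:1089701-1090200 in sv, chr4:816401-816900 in Sox102F and chr4:716601-717000 in ey, with 100%, 91.0% and 91.8% of the run annotated as an element. In sv a further INE-1 copy (chr4:1090805-1091282), not printed here, was also inside islands in all 10 libraries over at least 50% of its length.

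Elements took up more of the constantly covered bases than of the uncovered ones. INE-1 made up 9.32% of all bases of the 8 bodies, 25.7% of those inside islands in all 10 libraries and 1.55% of those outside in all 10. In the other chromosome 4 genes the values were 5.83%, 9.59% and 1.25%. By gene, INE-1 made up 96.8% of the constantly covered bases in sv, 64.6% in toy, 17.2% in zfh2, 15.0% in ci, 8.36% in onecut and 5.79% in pan. Of all bases of these genes it made up 10.7%, 25.2%, 6.92%, 12.7%, 7.07% and 4.90%, in the same order. The INE-1 share was thus little raised in ci, onecut and pan. Counted by insertion, 18 of the 51 INE-1 insertions of at least 100 bp in the 8 genes (35.3%) had at least 50% of their length inside islands in all 10 libraries, and 3 (5.88%) in none. Elsewhere on chromosome 4 the counts were 130 of 203 (64.0%) and 8 (3.94%). The authors dropped reads with many genomic hits, so coverage over young or near-identical copies may be understated.

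pan and toy held the long element stretches. In pan, 3.9 kb (chr4:76601-80500) within an I element, a retrotransposon, was inside every HP1, H3K9me2 and H3K9me3 island list of w1118. In toy a block of 2.9 kb (chr4:999101-1002000) was inside all of these lists and inside the HP1 lists of all 4 lines, and INE-1 and R1A1 copies took up 81.8% of it. Over whole bodies, HP1 coverage in w1118 was higher on element bases than on the rest in all 3 libraries for ci, toy, pan, Sox102F, onecut and sv, and in 2 of 3 for ey and zfh2. Exons were above introns in 3 of 3 libraries for zfh2 (64.3% against 37.9% on average) and toy (64.8% against 48.0%), in 2 of 3 for pan (55.1% against 32.0%) and Sox102F (38.0% against 17.7%), and in 1 of 3 for sv. They were above in no library for ci, ey and onecut.

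**Figure D2:**
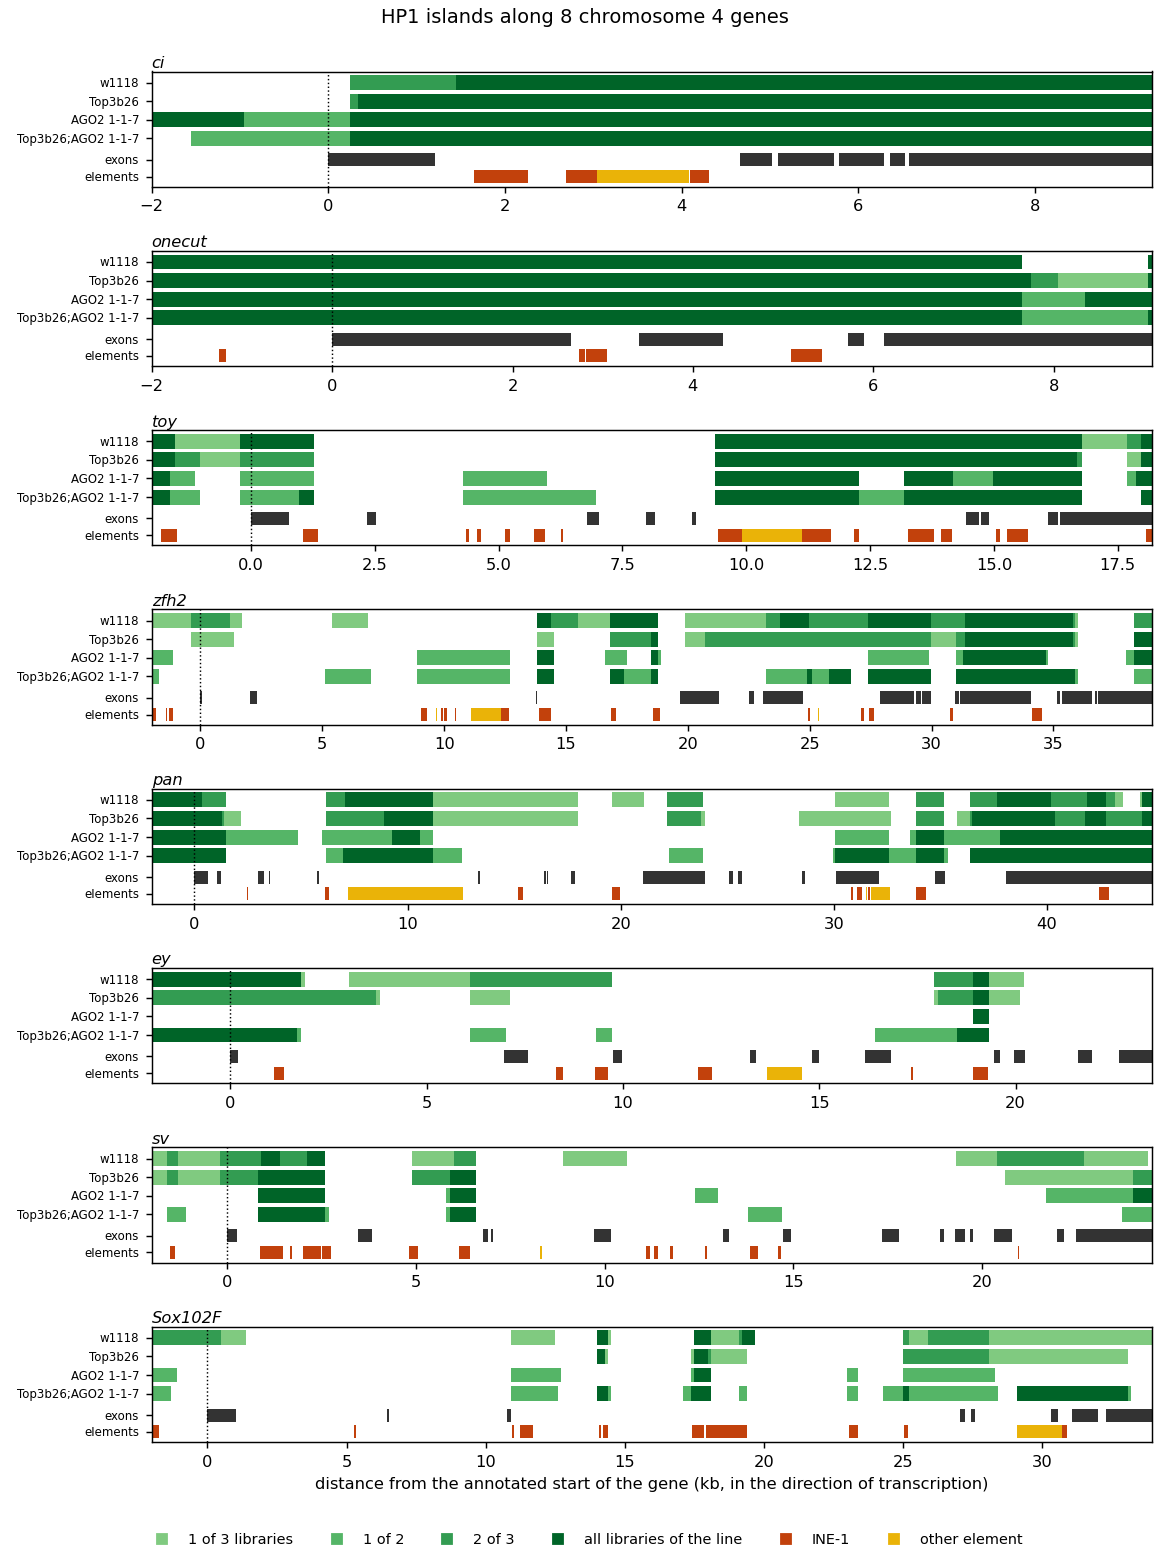
HP1 islands along each gene, from 2 kb before the annotated start (dotted line at 0) to the gene's end, in kb in the direction of transcription. Shades of green give the share of a line's libraries with an island (1 of 3, 1 of 2, 2 of 3 or all), black boxes are exons, red boxes INE-1 and yellow boxes other elements; onecut is filled from -2 kb to beyond 7 kb in all lines, while the interior of ey, sv and Sox102F is mostly empty.

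The upstream parts were mostly either full or empty. In w1118, HP1 islands covered 100% of the upstream 2 kb of ey, pan and onecut in each of the 3 libraries, and 0% of that of ci in each. Among the others, toy had 35.0%, 100% and 35.0%, zfh2 20.4%, 100% and 0%, Sox102F 100%, 100% and 0%, and sv 0%, 100% and 24.9%. The last 3 genes therefore had libraries at both ends of the scale, and their upstream level cannot be fixed from 3 libraries.

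Upstream coverage was below that of the body in every library for 1 of the 8 genes (ci) and above it for 3 (ey, pan and onecut). On chromosome 4, 13.6% of the genes were below and 25.4% above in every library. The median of upstream minus body was 16.5 points for the 8 genes and 0 for the chromosome 4 genes. Without w1118 replicate 2, the number of genes below rose from 1 to 3.

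H3K9 methylation was arranged differently at the starts. H3K9me2 was below the body upstream in every w1118 library for 4 genes (pan, zfh2, onecut and sv) and above it for none, against 30.5% and 8.47% of chromosome 4 genes. H3K9me3 was below for 3 (ci, ey and zfh2) and above for none, against 33.1% and 11.0%. Upstream of ey, 1.9 kb (chr4:695701-697600) was inside HP1 islands in every w1118 library and outside every H3K9me2 and H3K9me3 island of that line. At the start of toy the same was true of 1.5 kb (chr4:989501-991000), which runs from -224 to 1276 bp relative to the start and takes in most of the promoter sequence given above. At the start of pan it was true of 0.9 kb (chr4:68801-69700). These 3 genes thus had HP1 islands without called H3K9 methylation at their promoters, while onecut had H3K9me3 over 0%, 97.5% and 97.5% of its upstream part. HP1 islands without called methylation were not particular to these genes. Over bodies alone they took up 1.09% of the length of the 8 genes and 5.99% of that of the other chromosome 4 genes. The like share for upstream parts was not counted.

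Within the bodies, the order of the genes by H3K9me3 began and ended as for HP1. ci had 84.6% in each of the 3 w1118 libraries, and onecut had 73.7%, 84.6% and 73.1%. toy had 46.3%, 41.9% and 41.9%, and zfh2 27.9%, 41.0% and 43.3%. ey was the most variable, with 1.70%, 60.1% and 37.9%, and its replicate 1 kept only the INE-1 place. sv had 11.0%, 34.7% and 19.2%. pan (20.8%, 18.4% and 18.2%) and Sox102F (16.2%, 18.6% and 18.2%) were low with little spread. As for HP1, only onecut and toy were neighbours whose libraries did not overlap. The median over the 8 genes was 35.3%, against 45.5% on chromosome 4 and 50.9% over the other genes of at least 9 kb.

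The w1118 mean of H3K9me2 was below that of H3K9me3 for each of the 8 genes, and it depended on the library. onecut had 74.2%, 61.6% and 74.2% in w1118, above 95.8% of chromosome 4 genes in the mean. ci had 75.0%, 0% and 65.4%, so that replicate 2 alone lacked islands over this gene. zfh2 had 38.7%, 23.8% and 43.8%, and toy 41.9%, 15.9% and 41.9%. pan had 26.9%, 15.1% and 13.1%. Sox102F (14.7%, 0% and 14.4%), sv (10.6%, 2.45% and 9.38%) and ey (10.2%, 0% and 5.96%) were lowest, each with its minimum in replicate 2. No neighbours in this order were apart. The median of the 8 genes, 25.8%, was close to the 24.7% of chromosome 4, and that of the other long genes was 30.6%.

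In AGO2 1-1-7, HP1 coverage of the body was lower than in w1118 without overlap for 4 of the 8 genes (ey, toy, zfh2 and Sox102F) and higher for 1 (onecut). The same 2 calls were made for 12.4% (lower) and 16.8% (higher) of the 113 chromosome 4 genes with coverage, and for 23.4% and 21.3% of the 47 genes of at least 9 kb, the size class of all 8 genes. The median difference over the 8 genes was -6.57 points, against 0 over chromosome 4. By length, 3.42% of the 8 bodies was inside islands in every w1118 library and in no AGO2 1-1-7 library. For the other chromosome 4 genes this share was 3.94%, so the 8 genes did not lose more by this measure. The reverse, a gain common to all libraries, held for 0.793% and 3.02%. The w1118 libraries are shared by all comparisons of HP1 between lines, so these comparisons are not independent of each other.

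ey, the Pax6 gene, changed most. Its body had 1.70% in both AGO2 1-1-7 libraries against 13.7%, 46.5% and 24.7% in w1118, and its upstream part had 0% in both against 100% in all 3. The 400 bp on the INE-1 copy shown above were all that was left. The difference was -26.6 points in the body (exact permutation p = 0.2, adjusted p = 0.729 over the chromosome 4 genes tested) and -100 points upstream (exact permutation p = 0.1, adjusted p = 0.688). Upstream, 8.18% of 110 chromosome 4 genes were lower without overlap and 10.9% higher. The stretch inside islands in every w1118 library and in no AGO2 1-1-7 library was one run of 3.8 kb, chr4:695701-699500, from -1988 to 1812 bp relative to the start, with the promoter shown above inside it. Windows of 1 kb in all, centred on the 2 internal starts of ey, 6962 and 9740 bp downstream, also had 0% in both AGO2 1-1-7 libraries. In w1118 only 2 of 3 libraries had an island there.

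zfh2 had 24.3% and 22.7% in AGO2 1-1-7 against 34.5%, 60.3% and 44.0%, a difference of -22.8 points (exact permutation p = 0.2, adjusted p = 0.729). The loss common to all libraries amounted to 3.3 kb. Its longest run, 1.2 kb at chr4:525601-526800, was exonic over 76.7% of its length.

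toy had 42.4% and 45.6% against 50.5%, 55.5% and 48.9%, a difference of -7.63 points (exact permutation p = 0.1, adjusted p = 0.665). It lost 0.9 kb at chr4:1002001-1002900, directly beside the constantly covered block of INE-1 and R1A1. This call depended on the gaps between islands: once islands closer than 1100 bp were joined, the difference was 0.341 points. Sox102F had 8.54% and 11.5% against 13.2%, 34.9% and 12.7%, a difference of -10.3 points (exact permutation p = 0.4, adjusted p = 0.869), and its nearest libraries were only about a point apart. The groups overlapped for this gene with no minimum score, with a minimum score of 400 and with an equal number of islands per list.

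onecut moved the other way, with 100% and 92.3% against 84.6% in each w1118 library, a difference of 11.5 points (exact permutation p = 0.1, adjusted p = 0.665). The gain common to all libraries was 0.7 kb of exon at the 3′ end of the gene (chr4:598601-599300). ci had 100% and 97.4% in the body, which overlapped w1118, but its upstream part went from 0% in all 3 w1118 libraries to 100% and 52.0%, a difference of 76.0 points (exact permutation p = 0.1, adjusted p = 0.688). The gained run was 1.0 kb at chr4:58001-59000, ahead of the printed promoter. The 0% level did not hold in the w1118 library of the complementation set, which had 65.0% of the upstream part of ci inside islands. Nor did the 84.6% of onecut, whose body had 100% inside islands in that library. pan had 46.4% and 31.9% and sv 24.1% and 12.7%, both overlapping w1118.

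List construction was checked for these calls. Both AGO2 1-1-7 lists have the shorter smallest distance, which only replicate 1 of w1118 shares, and against that library alone the differences were -12.0 for ey, -11.1 for zfh2, -6.53 for toy, -3.22 for Sox102F and 11.5 for onecut. Without w1118 replicate 2, the median over the 8 genes was -2.08. ey and zfh2 stayed lower in every alternative tried. The other chromosome 4 genes had a median body coverage of 94.9% and 82.5% in the AGO2 1-1-7 libraries and of 67.2%, 94.3% and 88.5% in w1118. At a score of at least 200, the lists held 3504 and 5029 islands in AGO2 1-1-7 and 6609, 7371 and 4574 in w1118. With an equal number of islands per list, only ey and zfh2 stayed lower without overlap, so the calls of toy and Sox102F depended on this setting. Why they did was not tested.

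In Top3b26, HP1 coverage of none of the 8 bodies was lower without overlap and that of 1 (onecut) was higher. Over 116 chromosome 4 genes the shares were 0% and 5.17%, and the smallest adjusted p in this comparison was 1. onecut had 89.0%, 100% and 85.7% against 84.6% in each w1118 library, a difference of 6.96 points (exact permutation p = 0.1, adjusted p = 1). The gain common to all libraries was only 0.1 kb (chr4:599901-600000). The complementation set, with 1 library per line, had the other order for onecut, 84.6% in Top3b26 and 100% in w1118. In the replicated libraries, the means of ey, zfh2, Sox102F, toy and sv were lower by amounts within the spread: differences of -10.7, -9.23, -5.25, -4.72 and -2.81 points. ci (97.4%, 97.4% and 96.3%) and pan (30.4%, 39.5% and 57.7%) were 3.93 and 3.11 points higher in the mean and also overlapped.

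Replicate 1 of Top3b26 set the low ends. ey had 1.70%, 26.0% and 25.2%, and its upstream part 0%, 100% and 100%. zfh2 had 16.8%, 48.0% and 46.3%, Sox102F 2.36%, 11.8% and 30.9%, and sv 10.2%, 33.5% and 19.7%. toy had 43.0%, 48.9% and 48.9%. The median difference was -3.76 points, and it was 1.87 without Top3b26 replicate 1 and 2.11 without w1118 replicate 2, so its sign rested on single libraries. Upstream of Sox102F, Top3b26 had 0% in all 3 libraries, as did 1 w1118 library. For ey, 1 of 3 Top3b26 libraries had the same values as AGO2 1-1-7 in the body and upstream, and the other 2 did not.

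In the double mutant, none of the 8 bodies was apart from w1118 in either direction, against 0.870% (lower) and 11.3% (higher) of 115 chromosome 4 genes. ey had 12.4% and 23.9%, with 100% of its upstream part in both libraries, the w1118 level. zfh2 had 39.6% and 38.4%, Sox102F 22.7% and 28.6%, toy 53.4% and 48.9%, and sv 18.0% and 10.2%. pan had 50.2% and 42.2%, ci 100% and 97.4%, and onecut 100% and 84.6%. The differences from w1118 ran from -10.1 points (ey) to 7.70 points (onecut), with a median of 2.43 against 2.65 over chromosome 4 (exact permutation p from 0.4 to 1, every adjusted p 1).

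Set directly against AGO2 1-1-7, both double mutant libraries lay above both AGO2 1-1-7 libraries for 4 genes, and these were the 4 that were lower in AGO2 1-1-7: ey by 16.4 points in the mean, Sox102F by 15.6, zfh2 by 15.5 and toy by 7.14. None lay below. Over 111 chromosome 4 genes the shares were 18.9% higher and 5.41% lower. The AGO2 1-1-7 values stand in both comparisons, so a low AGO2 1-1-7 level raises both counts. Upstream, ey was 100 points higher in the double mutant. Not all of the start regions followed. Windows of 1 kb in all, centred on the first start of zfh2, Sox102F and sv, had no HP1 island in either AGO2 1-1-7 library nor in either double mutant library. In w1118, 2 of 3 libraries had one. pan gained the same 0.8 kb of exon near its 3′ end (chr4:112901-113700) in AGO2 1-1-7 and in the double mutant.

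For H3K9 methylation, Top3b26 did not stand apart from w1118 in any of the 8 bodies. For H3K9me2 the calls were 0 lower and 0 higher, against 0% and 2.08% of 96 chromosome 4 genes. Replicate 2 was low in both lines, and within same-numbered pairs 4 genes (ci, ey, onecut and sv) were higher in Top3b26 in 3 of 3 pairs and none was lower, against 11.5% and 0% of chromosome 4 genes. In sv the third pair differed only from 9.38% to 9.79%, and in ci the second pair set 75.0% against 0% in w1118. The labels do not say what a replicate number shares, so the pairs are described only and the calls do not use them. For H3K9me3 the calls were also 0 and 0, against 0.990% and 4.95% of 101 genes. The mean of H3K9me2 was higher in Top3b26 for 7 of the 8 genes, with a median difference of 4.73 points against 3.63 over chromosome 4. Of the 96 chromosome 4 genes, 58 had a higher mean and 28 a lower one, so most of the chromosome went the same way. The largest was ci, with 80.4%, 75.0% and 80.4% against 75.0%, 0% and 65.4% in w1118, a difference of 31.8 points that rests on the low w1118 replicate 2 (exact permutation p = 0.2, adjusted p = 1). onecut had 84.1%, 72.6% and 83.0%. Upstream of onecut, H3K9me2 was 0% in the 3 w1118 libraries and 97.5%, 0% and 97.5% in Top3b26, again with replicate 2 at 0% (exact permutation p = 0.4, adjusted p = 1).

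H3K9me3 moved little. The median difference was -0.286 points, against 0.883 over chromosome 4. toy had 45.0%, 48.9% and 57.7% in Top3b26, 7.19 points above w1118 in the mean (exact permutation p = 0.2, adjusted p = 1). With an equal number of islands per list, this difference was -0.630 points. All 3 Top3b26 libraries had an H3K9me3 island over 1.4 kb at the start of toy (chr4:989601-991000), and no w1118 library had one there. It is the place where w1118 had HP1 islands without H3K9 methylation. zfh2 lost 1.7 kb of H3K9me3 at chr4:512801-514500, a stretch annotated over 92.8% of its length as HB and INE-1 elements, while its body as a whole had 36.1%, 37.4% and 32.8%. For the remaining genes, Top3b26 had 24.0%, 16.4% and 21.7% in pan, 17.7%, 13.5% and 12.4% in Sox102F, 18.8%, 19.2% and 20.0% in sv and 18.3%, 44.7% and 37.1% in ey. The libraries of ey ranged less widely than in w1118 (SD 13.6 against 29.5 points).

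**Figure D3:**
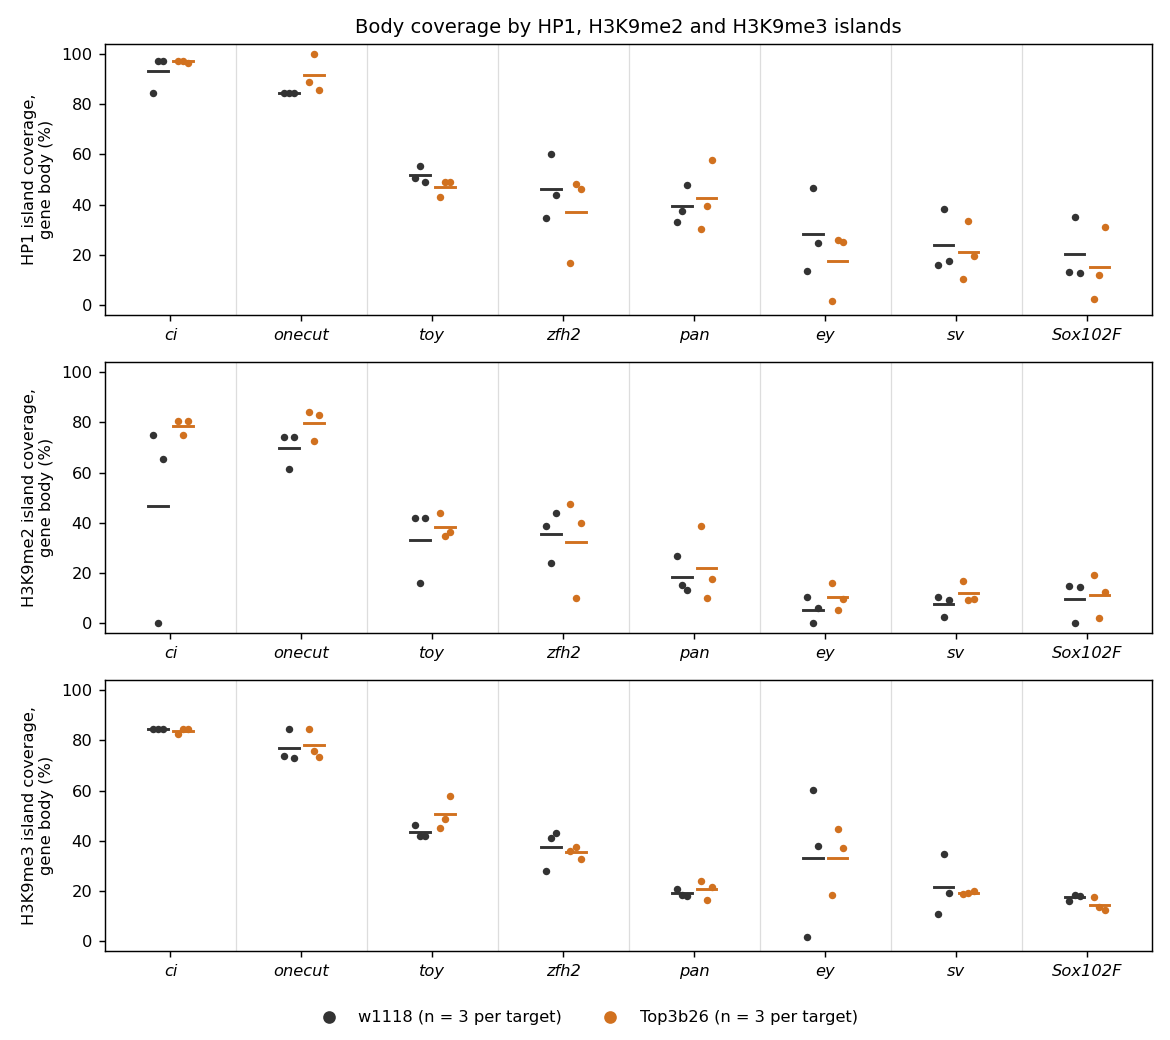
Body coverage by HP1, H3K9me2 and H3K9me3 islands (percent of bases) in w1118 and Top3b26, with 1 point per library (n = 3 per target and line) and bars for means. ci and onecut are the highest for all 3 targets, and the points of both lines overlap except for HP1 on onecut; the w1118 point at 0% for H3K9me2 on ci is replicate 2.

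Top3b islands were sparse in these genes. At a score of at least 200, replicate 1 had none in the 8 bodies (and none in any chromosome 4 gene body). Replicate 2 had them in 4 (pan, zfh2, onecut and sv), when 15.3% of chromosome 4 genes had one, and replicate 3 in 3 (ci, toy and sv), against 5.93%. The share of islands that reached 200 was 15.5%, 40.7% and 7.90% in the 3 lists. The chromosome shares given here, and those for FLAG below, are not matched for gene length. The median length was 24002.5 bp for the 8 genes and 6252.5 bp over chromosome 4. Whether length accounts for the counts was not tested.

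sv was the gene with a Top3b island at the same place in more than 1 library. In replicates 2 and 3 it ran from chr4:1089601 to 1091400, 803 to 2603 bp after the start, with scores of 466 and 266. This island contains the constantly HP1-covered INE-1 copy whose sequence is given above. Islands below 200 showed a like place in Sox102F: all 3 Top3b libraries had an island on its INE-1 copy, at chr4:816601-816800, chr4:816301-816900 and chr4:816401-816800, with scores of 54, 188 and 92. In toy, the island of replicate 3 (chr4:999201-1001400, score 209) lay on the INE-1 and R1A1 block. ey, the third gene with an isolated INE-1 place, had no Top3b island at any score.

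In zfh2, Top3b islands ended at chr4:508800 in all 3 libraries, with scores of 120, 449 and 117. The FLAG lists had an island with the same end in FLAG-AGO2 replicate 1 (score 992) and in the untagged w1118 control (score 955), so an island was called here without the tag as well. The same held more widely. FLAG-AGO2 replicate 1 had islands in 4 bodies (ey, pan, zfh2 and Sox102F, against 11.9% of chromosome 4 genes), and the untagged control had islands in those 4 and in onecut, where one ran from chr4:603301 to 606600 (22.9% of chromosome 4 genes). FLAG-AGO2 replicate 2, whose list carries a heading that names it a control difference, had 1 island in the 8 genes. It covered the start of toy (chr4:989501-991600, score 543), where the untagged library had none and replicate 1 had an island of score 190 (chr4:989401-990000). In replicate 2, 2.54% of chromosome 4 genes had an island. At any score, the toy start was the only place in the 8 genes with an island in both FLAG-AGO2 lists and none in the untagged one. The replicate 1 island there was below the minimum of 200. The paper states that FLAG signal of w1118 was subtracted in its FLAG-AGO2 analysis. If the replicate 2 list was made this way, its islands would lack an untagged counterpart by construction. The toy start was also one of the places with HP1 but no H3K9 methylation islands in w1118.

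The complementation set asked whether Top3b transgenes change HP1 in the Top3b26 line. Each line had 1 library, so there is no replicate error and no test. These libraries covered more of the chromosome than those above, with a median of 100% over chromosome 4 gene bodies in all 5. pan had 94.9% in w1118, 65.7% in Top3b26, 94.9% with WT, 82.6% with Y332F and 94.2% with dRGG. onecut had 84.6% in Top3b26 and 100% in the other 4 lines, and ci had 100% in all 5. sv had 31.9%, 23.3%, 35.6%, 30.2% and 29.0% in the same order of lines, and Sox102F had 39.0%, 30.3%, 38.7%, 32.4% and 35.3%. The Top3b26 library was thus the lowest of the 5 for pan, onecut, sv and Sox102F.

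The remaining genes did not share that order. toy had 69.8%, 62.6%, 68.7%, 61.5% and 58.8%, with dRGG lowest. zfh2 had 48.8%, 52.0%, 61.9%, 48.0% and 45.2%. ey had 14.5%, 28.2%, 14.1%, 15.0% and 13.7%, so Top3b26 was the highest, and its upstream part was at 100% in all 5. Over the 8 genes, Top3b26 was below w1118 in 5 and above in 2, with a median of -7.85 points. The WT library was above Top3b26 in 6 genes (median 9.17 points), Y332F in 4 (1.03) and dRGG in 4 (2.50). The chromosome 4 medians of these differences were 0, with most genes filled to 100%, so they give no background for the counts. How many chromosome 4 genes share these directions was not counted, nor how many were lowest in Top3b26. Whether the counts are particular to the 8 genes therefore cannot be said. Upstream of ci, coverage was 65.0% in w1118, 52.95% in Top3b26, 100% with WT, 65.0% with Y332F and 100% with dRGG. In the replicated libraries above, pan, sv and Sox102F of Top3b26 overlapped w1118, and onecut was higher in Top3b26 than in every w1118 library.

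**Figure D4:**
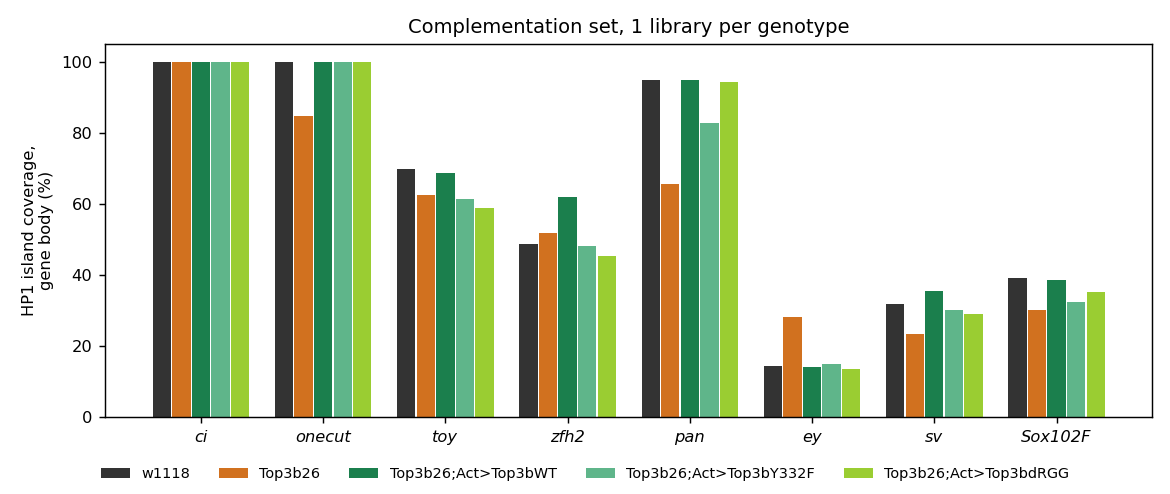
HP1 body coverage (percent of bases) of the 8 genes in the complementation set, with 1 bar per line and 1 library per bar, and no error bars for that reason. The Top3b26 bar (orange) of pan is at 65.7% between bars of 94.9%, and that of ey, at 28.2%, is the highest of its gene.

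Genes with the most similar coverage over all 33 lists were sought among other chromosome 4 genes of at least 5 kb that lie more than 10 kb away, by the mean absolute difference in body coverage. ci was closest to Ank (5.52 points) and onecut to Hcf (5.76). sv and Sox102F were both closest to Mitf (6.78 and 7.45), pan to CG33978 (7.14), toy to PlexB (7.18) and zfh2 to fuss (8.45). ey had the poorest match, CR32010 at 11.2 points.

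Partners and relatives of these factors elsewhere in the genome were examined for HP1 in AGO2 1-1-7. Over all main arms, 12.8% of 7581 genes with coverage were lower without overlap and 0.778% higher. Of 6 retinal determination genes, which work with ey and toy, none was lower, and their median coverage in w1118 was only 0.487%. Of 8 Hedgehog pathway genes, 2 were lower: slmb, a ubiquitin ligase subunit that acts on ci protein, went from 11.3% to 5.67%, and ptc, the Hedgehog receptor, from 5.47% to 1.77%. Of 12 Wnt pathway genes, none was lower (median 4.72% in w1118). Of 16 Pax, Sox, zinc-finger homeobox and Cut paralogues, 1 was lower, Sox100B, from 28.3% to 0%. None of the genes on these lists was higher. The median coverage of the paralogues in w1118 was 0%, so most of the relatives of the 8 genes had no HP1 islands to lose.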

How the data were processed

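Reads were mapped and islands were called by the authors. Per the labels and methods of the study, reads were aligned to dm6 with Bowtie (Bowtie2 and SAMtools 1.8 are among the tools in the submitters' notes), reads with many genomic hits were dropped, and SICER called islands in windows of 100 bp against input DNA of the same line. For both histone marks, a line had 1 input in common. The deposited island scores served only as a filter (unit: not given in the sources used here). The heading of the FLAG-AGO2 replicate 2 list names it a control difference. The 33 island lists were used, and the 22 input samples were not.

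Islands with a score of at least 200, the minimum of the study, were laid over annotated bodies and the 2 kb upstream (BDGP annotation, dm6, with annotated elements). The dm6 sequences shown were read from the reference genome by these coordinates. Group means were compared by two-sided exact permutation tests over libraries, run for every chromosome 4 gene and adjusted by Benjamini-Hochberg over those with coverage. Calls require that groups do not overlap. Groups and replicate numbers came from sample titles. The description of Top3b replicate 2 names repeat 3, and that of Top3b26 H3K9me3 replicate 2 names H3K9me2. The titles were followed, and for the latter sample the named antibody was H3K9me3 as well. Named were all 8 genes, for each the most similar other gene, and up to 3 genes per pathway list by size of difference. The genes and lists were chosen with earlier results of these data known. Alternatives were no minimum score or a minimum of 400, equal numbers of islands, joining islands closer than 1100 bp, subsets of lists by smallest distance, upstream windows of 1 or 5 kb, leaving out each library and a replicate block. The calculation used Python 3.11.15, NumPy 2.4.6 and matplotlib 3.10.9 and was tested on simulated data. Without read counts, no counting error can be given.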

Additional observations from a re-analysis of the deposited data

How the results depend on the processing

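Of 456 differences in body coverage of single genes under the alternatives, 48 had another sign than the value reported, 29 of them with 1 library left out, so the direction of many small differences rests on single libraries or settings. For genes whose groups did not overlap, 1 changed sign: toy in AGO2 1-1-7, at 0.341 points with islands closer than 1100 bp joined. The other 47 were of genes whose groups overlapped, and in HP1 of Top3b26 they included ci, pan, zfh2, Sox102F and sv. Among counts of the 8 genes whose groups did not overlap, the lists with the smaller distance between islands gave 6 lower and 2 higher for HP1 in Top3b26 (1 library a line), 2 higher (ci and onecut) in AGO2 1-1-7 and 4 higher (ci, pan, zfh2 and Sox102F) in the double mutant. An equal number of islands per list gave 2 lower (ey and zfh2) in AGO2 1-1-7, and no minimum or a minimum of 400 gave 3 (without Sox102F). A minimum score of 400 gave 1 lower (sv) in the double mutant, and no minimum gave 1 lower (Sox102F) for H3K9me3 in Top3b26. Leaving out 1 library at a time gave 0 to 1 lower for HP1 in Top3b26, 4 to 6 lower and 1 to 2 higher in AGO2 1-1-7, and 0 to 2 lower and 0 to 3 higher in the double mutant. It gave 0 to 2 higher for H3K9me2, 0 to 2 lower and 0 to 1 higher for H3K9me3, and 1 to 3 genes with upstream coverage below the body. The cause of these changes was not tested. The labels do not say what a replicate number shares. Correlations of deviations between same-numbered libraries of w1118 and Top3b26 were 0.555, -0.0375 and 0.140 for HP1, 0.183, 0.0673 and 0.253 for H3K9me2 and 0.107, -0.155 and 0.227 for H3K9me3, so not all passed 0.1 for any of them and the numbers were not taken as pairs. With the replicate block, 1 gene was lower (ey) and 1 higher (pan) in the double mutant and 4 were higher for H3K9me2 (ci, ey, onecut and sv), while AGO2 1-1-7 had the same 4 lower and 1 higher. Depth is not given, so islands missing from short lists cannot be told from absent signal.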
